A study of Mus musculus with 12 samples.

Results

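Interferon-stimulated genes were followed through all 4 groups of an RNA-seq series of mouse mammary tissue. The set was a list of 39 gene names, and its rows were looked up among the 23301 gene names common to all 12 samples. Of the 39 genes, 35 had a row of their own in every sample. In the normal and untreated tumor samples 37 had one, and 36 passed the filter on low values, for which 3 or more of the 6 samples of a comparison had to reach 1 FPKM. In the injected tumors 36 had one and 33 passed. FPKM counts the fragments of a gene relative to its length and to the size of the library, so levels may be compared between genes on this scale.

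The Normal group held 3 replicates from FVB wild type females at 12 weeks without treatment, each a mix of abdominal and inguinal mammary glands of 3 mice. The Tumor group held 3 replicates from untreated MMTV-PyVT females of the same age, each from the thoracic gland of 1 mouse. Tissue, genotype, gland position and mice per replicate changed together between these groups and cannot be told apart. The DMSO and C646 groups held 3 tumors each of MMTV-PyVT mice, also at 12 weeks, which had been injected with DMSO or with C646, an inhibitor of the histone acetyltransferase p300. The labels give 1 mg/kg for both injections. The tumors sequenced were the biggest ones of the mice. In MMTV-PyVT mice the MMTV promoter drives the polyoma middle T oncogene in mammary epithelium, and all tumor groups carry it. The replicates of these groups were different tumors or pools of mice, and no group was split or reassigned by its values.

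Interferons are cytokines that cells release on sensing viral RNA, foreign or misplaced DNA and other danger signals. Type I and type III interferons act through the receptors Ifnar1/Ifnar2 and Ifnlr1/Il10rb, and the kinases Jak1 and Tyk2 then activate a complex with Stat2 and Irf9 that binds the interferon-stimulated response element (ISRE). Type II interferon, Ifng, acts through Ifngr1/Ifngr2 and at gamma-activated sites (GAS), and drives Irf1, the guanylate-binding proteins, the immunity-related GTPases and the chemokines Cxcl9 and Cxcl10 with particular strength. In mammary tumors such genes can be expressed by the epithelium and by the leukocytes within it. In bulk tissue, fewer cells of a type and less RNA per cell cannot be told apart.

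Of the members that have a promoter sequence in the reference, 4 had the largest called changes between tumor and normal tissue. Their promoters are shown as a description, and a link to the values that follow was not tested. Each is a RefSeq window of 300 bases around a start site on GRCm38.p6, on the minus strand in all 4 cases. It runs from 250 bases before to 50 after the GENCODE start of Isg15, Cxcl9 and Cxcl10, and from 200 before to 100 after that of Ifi44. The capitals mark the ISRE core GAAANNGAAA on either strand. Isg15 (chr4:156200769-156201068) and Ifi44 (chr3:151749861-151750160) were higher in tumors, and Cxcl9 (chr5:92328030-92328329) and Cxcl10 (chr5:92348840-92349139) were lower.
Isg15: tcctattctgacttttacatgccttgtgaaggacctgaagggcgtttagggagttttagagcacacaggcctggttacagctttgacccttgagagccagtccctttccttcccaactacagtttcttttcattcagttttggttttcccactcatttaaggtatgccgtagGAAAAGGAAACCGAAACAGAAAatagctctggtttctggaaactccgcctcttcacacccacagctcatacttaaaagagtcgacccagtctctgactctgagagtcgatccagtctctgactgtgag
Ifi44: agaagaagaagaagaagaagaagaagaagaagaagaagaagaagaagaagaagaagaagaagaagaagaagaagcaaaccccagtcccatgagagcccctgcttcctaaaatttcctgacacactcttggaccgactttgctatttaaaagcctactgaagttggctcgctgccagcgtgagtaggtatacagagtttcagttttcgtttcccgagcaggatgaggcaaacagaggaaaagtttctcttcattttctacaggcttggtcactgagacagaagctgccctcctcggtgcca
Cxcl9: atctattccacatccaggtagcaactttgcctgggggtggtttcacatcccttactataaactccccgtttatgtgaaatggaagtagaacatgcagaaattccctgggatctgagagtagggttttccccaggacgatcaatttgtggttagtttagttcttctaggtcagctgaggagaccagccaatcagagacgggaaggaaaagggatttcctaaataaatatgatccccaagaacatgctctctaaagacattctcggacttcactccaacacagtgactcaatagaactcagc
Cxcl10: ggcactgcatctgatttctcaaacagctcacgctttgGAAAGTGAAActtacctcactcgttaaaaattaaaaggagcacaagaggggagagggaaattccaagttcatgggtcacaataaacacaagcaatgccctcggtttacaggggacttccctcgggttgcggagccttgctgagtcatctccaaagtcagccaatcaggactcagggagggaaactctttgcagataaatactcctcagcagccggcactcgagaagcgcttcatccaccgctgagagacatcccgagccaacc

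Isg15 held 3 overlapping matches to the ISRE core, starting 78, 72 and 66 bases before the start site. Cxcl10 held 1 match, 213 bases before it, and the windows of Ifi44 and Cxcl9 held none. A match is a description of the letters and not a measured binding site. The core was searched as GAAANNGAAA and, on the other strand, TTTCNNTTTC, and the GAS motif as TTCNNNGAA, which reads the same on both strands. Of the 39 members, 29 had a promoter in the reference. The ISRE core lay in 16 of these 29 (55.17%), against 3.99% of all 27025 genes with a promoter. The GAS motif lay in 7 of 29 (24.14%), against 9.55% of all genes. Among the members usually called more responsive to type II interferon, 6 of 8 held the ISRE core and 3 of 8 the GAS motif. Among the other members, the numbers were 10 and 4 of 21.

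Several members lie side by side in the genome (GENCODE vM21 on GRCm38, the build of the deposited values). Gbp7, Gbp3 and Gbp2 lie within 107.7 kb on chromosome 3, Ifit2, Ifit3 and Ifit1 within 99.3 kb on chromosome 19, and Oas2, Oas3 and Oas1a within 177.2 kb on chromosome 5. Chromosome 5 also holds the pairs Oasl2 and Oasl1 (41.0 kb) and Cxcl9 and Cxcl10 (27.5 kb). Parp14, Dtx3l and Parp9 span 139.7 kb on chromosome 16, and Rsad2 and Cmpk2 span 37.1 kb on chromosome 12. The library kit did not keep the strand, so reads where members overlap a gene on the opposite strand could not be assigned by strand. This applies to Parp9 and Dtx3l, Irf7 and Phrf1, Cxcl10 and Art3, Rtp4 and Masp1, and Irf1 and Gm17334. Oas1a shares 57.6% of its 50-base windows with Oas1g, and Ifit3 shares 51.2% with Ifit3b, so the division of reads within these pairs is uncertain.

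Read numbers per library are not known here, so no counting error can be attached to the values. From the steps of the lowest FPKM values, Tumor replicate 3 was 1.53 times as deep as Tumor replicate 1, and DMSO replicate 1 was 0.93 times as deep as DMSO replicate 2. The labelled tissues carried their markers. Summed FPKM of 5 epithelial markers was 401 to 843 in normal tissue and 2225 to 3244 in tumors, while 6 adipocyte markers summed to 17460 to 22270 in normal tissue and 84.7 to 1312 in tumors. Most leukocyte markers were lower in tumors as well. The pan-leukocyte genes Ptprc, Cd52 and Coro1a summed to 673 to 1080 FPKM in normal tissue and 36.2 to 65.3 in tumors, 6 T and NK cell markers to 163 to 221 against 0.831 to 2.89, 4 B cell markers to 223 to 284 against 0.445 to 0.816, and 5 macrophage and monocyte markers to 178 to 207 against 37.4 to 63.1. The sum of 3 plasmacytoid dendritic cell markers went the other way, at 10.51 to 10.97 in normal tissue and 40.7 to 101.3 in tumors. Only Cox6a2 rose, and it made up nearly all of the tumor sums. Siglech was at 5.38 to 7.75 FPKM in normal tissue and 0.05 to 0.19 in tumors, and Ccr9 at 1.79 to 2.42 and 0 to 0.022. Ms4a1, a defining B cell gene, was listed at 0 in all 3 tumors.

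The mean of log2(FPKM + 0.03125) over the 35 members with a row in every sample gave 1 score per sample. It was 2.52, 2.63 and 2.44 in Normal replicates 1 to 3 and 1.94, 2.64 and 3.81 in Tumor replicates 1 to 3. The tumors lay on both sides of normal tissue. Among the injected tumors the score was 5.04, 2.21 and 4.29 in DMSO replicates 1 to 3 and 2.37, 2.33 and 2.29 in C646 replicates 1 to 3. DMSO replicates 1 and 3 stood above every other sample, with Tumor replicate 3 next, while DMSO replicate 2 lay just below all C646 tumors. As mean ± SD (n = 3 each) the scores were 2.53 ± 0.09 for Normal, 2.80 ± 0.94 for Tumor, 3.85 ± 1.47 for DMSO and 2.33 ± 0.04 for C646. The difference was 0.27 for Tumor minus Normal and -1.52 for C646 minus DMSO. The first was smaller than the SD of the Tumor group, and the second close to the SD of the DMSO group. Tumor minus Normal turned to -0.24 without Tumor replicate 3 and to 0.69 without Tumor replicate 1. The 2 pairs of groups were deposited with different gene rows, so levels across them stand side by side without a test.

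**Figure D1:**
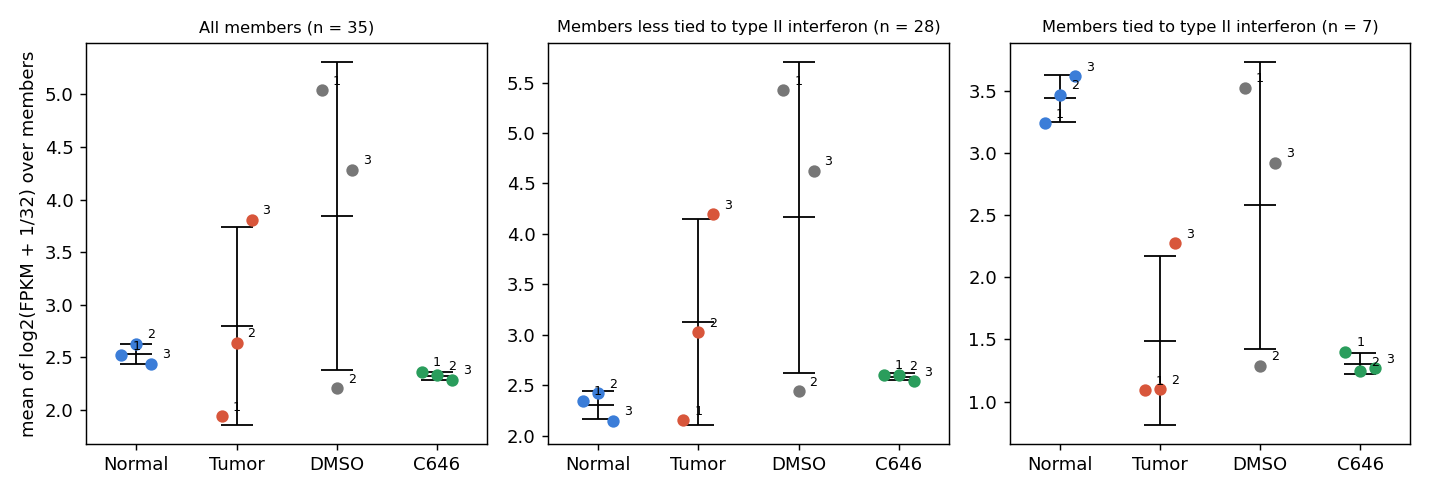
Mean log2(FPKM + 0.03125) per sample over all 35 members, over 28 members less tied to type II interferon and over 7 members tied to it, with replicate numbers beside the points and black bars for mean ± SD of 3 samples. Normal and C646 samples lie close together, and Tumor and DMSO samples spread widely. Only the 7 members on the right separate all samples of the Tumor group from all normal samples. There DMSO replicate 1, at 3.52, lies within the Normal range of 3.24 to 3.61.

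Expression in Tumor was then compared with Normal, which asks how the interferon-stimulated genes of the tumor differ from those of the normal gland. Of the 36 members tested, 8 were higher in Tumor (Irf7, Irf9, Trim25, Isg15, Oas1a, Mx2, Ifi44 and Rtp4), 8 were lower (Irf1, Ifit2, Samhd1, Parp14, Dtx3l, Gbp7, Cxcl9 and Cxcl10) and 20 did not pass the test (limma, Benjamini-Hochberg adjusted p under 0.05 over all genes tested). Of all 13031 genes tested, 28.8% were higher and 31.7% lower, and the corresponding members made up 8 of 36 in either direction. The tumors did not overlap the normal samples for 8 members on the higher side and 9 on the lower, where the shares of all genes were 33.1% and 35.8%. The median log2 fold change of the members was 0.49, against -0.02 for all genes.

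The members were also described by the kind of interferon they respond to. Of the 9 members usually called more responsive to type II interferon, 7 were tested, of which 0 were higher by limma, also at an unadjusted p under 0.05, and 4 were lower (Irf1, Gbp7, Cxcl9 and Cxcl10). Their median log2 fold change was -1.18. Of the other 29 members tested, 8 were higher and 4 lower, with a median of 0.66. The shares of all genes were 28.8% higher and 31.7% lower, and the difference between the kinds was not tested. The per-sample score of the first kind was 3.24, 3.46 and 3.61 in Normal and 1.09, 1.10 and 2.28 in Tumor. That of the second was 2.35, 2.42 and 2.15 in Normal and 2.15, 3.025 and 4.19 in Tumor. These divided lists were compared by counts and medians only, and the leukocyte markers given above were lower in the same tumors. Their part in the difference was not tested.

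**Figure D2:**
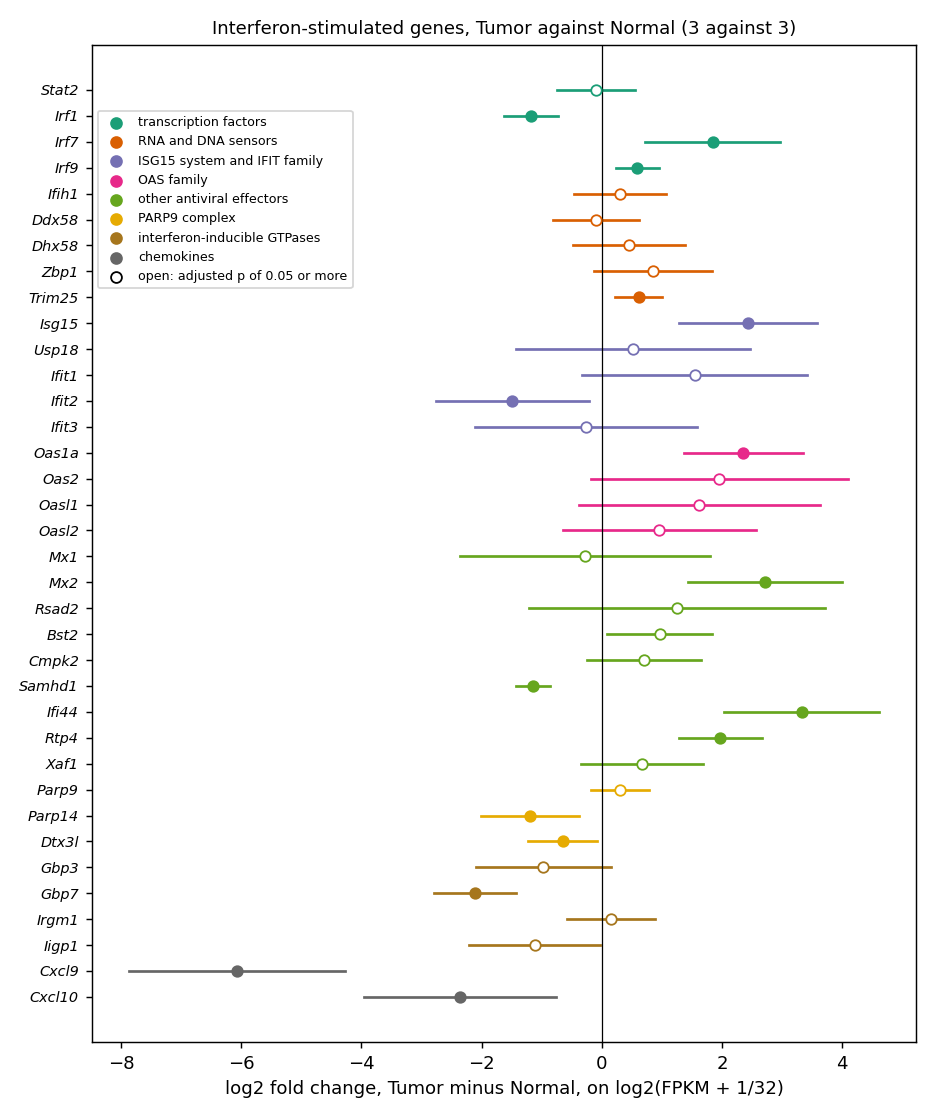
Log2 fold change of Tumor over Normal on log2(FPKM + 0.03125) for the 36 members tested, ordered and coloured by role, with 95% intervals from limma. Filled points passed an adjusted p of 0.05. The 8 filled points on the right include Ifi44 at 3.32 and Mx2 at 2.72, and the 8 on the left run from Dtx3l at -0.65 to Cxcl9 at -6.07. Mx2 passed the filter on low values only through Tumor, and Cxcl9 only through Normal.

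The transcription factors of the response moved in different directions. Irf7, the main amplifier of type I interferon production, had 23.2, 22.6 and 17.9 FPKM in Normal and 48.2, 51.0 and 177 in Tumor. All tumors were higher, Tumor replicate 3 by far the most (log2 fold change 1.84, SE 0.48, limma adjusted p = 0.0123). Irf9, the DNA-binding subunit of the complex with Stat2, had 20.9, 23.2 and 19.0 FPKM in Normal and 30.0, 28.4 and 37.2 in Tumor. It was modestly higher in each tumor (log2 fold change 0.59, SE 0.15, limma adjusted p = 0.0124). Irf1, a target and effector of type II interferon, had 53.3, 61.7 and 56.9 FPKM in Normal and 29.7, 19.0 and 28.2 in Tumor. It was lower in every tumor, without the peak in Tumor replicate 3 (log2 fold change -1.18, SE 0.19, limma adjusted p = 0.00151). Stat2 did not pass, with a log2 fold change of -0.10 and tumors from 7.10 to 15.2 FPKM on both sides of normal tissue at 9.69 to 11.1.

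Among the sensors of foreign nucleic acid and their modifier Trim25, only Trim25 passed. Trim25, the ubiquitin ligase that modifies Ddx58 (RIG-I), had 11.4, 10.53 and 9.81 FPKM in Normal and 13.4, 16.9 and 18.6 in Tumor, and each tumor was above each normal sample (log2 fold change 0.61, SE 0.17, limma adjusted p = 0.0147). The RNA helicases Ifih1 (MDA5), Ddx58 and Dhx58 (LGP2) and the nucleic acid sensor Zbp1 had log2 fold changes between -0.10 and 0.85 and did not pass. All 4 were highest in Tumor replicate 3.

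Isg15, a ubiquitin-like modifier, had 12.7, 9.85 and 7.03 FPKM in Normal and 24.4, 56.5 and 100.1 in Tumor. The groups did not overlap (log2 fold change 2.43, SE 0.49, limma adjusted p = 0.00407). Ifit2, an RNA-binding inhibitor of translation, went the other way, with 2.32, 3.52 and 2.69 FPKM in Normal and 0.430, 1.00 and 2.13 in Tumor. Every tumor was lower (log2 fold change -1.49, SE 0.54, limma adjusted p = 0.0459), at levels near the filter. Usp18, the protease that removes Isg15 and damps the receptor, and the Ifit2 relatives Ifit1 and Ifit3 did not pass, with log2 fold changes of -0.27 to 1.54. In the family of the 2-5-oligoadenylate synthetases and their relatives, Oas1a had 2.81, 3.55 and 2.90 FPKM in Normal and 8.18, 16.6 and 28.9 in Tumor. All tumors were higher (log2 fold change 2.35, SE 0.42, limma adjusted p = 0.00236). Oas1g, which shares much of the sequence of Oas1a, had a log2 fold change of 3.32 (limma adjusted p = 0.00761). Oas2, Oasl1 and Oasl2 had log2 fold changes between 0.96 and 1.96 and did not pass, and Oas3 reached 1 FPKM only in Tumor replicate 3 and was not tested.

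Of 9 other antiviral effectors, 3 were higher and 1 lower, beside 28.8% and 31.7% of all genes. Ifi44, whose function is less defined, had 1.06, 0.576 and 0.572 FPKM in Normal and 3.56, 6.83 and 16.3 in Tumor. It had the largest rise of the members tested (log2 fold change 3.32, SE 0.55, limma adjusted p = 0.00163). Mx2, a dynamin-like GTPase that blocks virus replication, had 0.655, 0.435 and 0.484 FPKM in Normal and 1.82, 2.98 and 8.39 in Tumor. Each tumor exceeded each normal sample (log2 fold change 2.72, SE 0.55, limma adjusted p = 0.00399). All normal samples were below 1 FPKM for Mx2, so it passed the filter on low values only through the tumors. Rtp4, a chaperone of membrane receptors, had 9.17, 11.7 and 8.57 FPKM in Normal and 26.0, 36.3 and 58.8 in Tumor, again without overlap (log2 fold change 1.97, SE 0.30, limma adjusted p = 0.00106). Samhd1, a dNTP hydrolase that restricts retroviruses, was the member that fell, by 1.14 on the log2 scale (limma adjusted p = 0.00023). Mx1, Rsad2 (viperin), its neighbour the nucleotide kinase Cmpk2, the virion tether Bst2 and the apoptosis factor Xaf1 did not pass, with log2 fold changes of -0.28 to 1.25.

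The PARP9 complex, the GTPases and the chemokines held the rest of the lower members. Parp14, a mono-ADP-ribosyltransferase, had 9.31, 9.75 and 9.19 FPKM in Normal and 2.57, 3.75 and 7.12 in Tumor (log2 fold change -1.19, SE 0.35, limma adjusted p = 0.0194). Its neighbour Dtx3l, a ubiquitin ligase that pairs with Parp9, had 10.9, 8.57 and 10.3 FPKM in Normal and 4.44, 6.90 and 8.03 in Tumor (log2 fold change -0.65, SE 0.24, limma adjusted p = 0.0498). Both were lower in every tumor, while Parp9 itself, which overlaps Dtx3l head to head, had a log2 fold change of 0.31 and did not pass. Gbp7, a guanylate-binding protein that attacks intracellular pathogens, had 7.28, 6.49 and 7.82 FPKM in Normal and 1.08, 1.78 and 2.29 in Tumor. All tumors were lower (log2 fold change -2.11, SE 0.29, limma adjusted p = 0.000701). Gbp3, Irgm1 and Iigp1 did not pass, with log2 fold changes of -1.11 to 0.16. Gbp2 and Igtp had no row of their own here. The row that joins Gbp2 with Gbp2b fell by 1.81 on the log2 scale (limma adjusted p = 0.00167), and that of Igtp with Irgm2 had a log2 fold change of -1.09 and missed the threshold (limma adjusted p = 0.0544).

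Cxcl9 and Cxcl10, ligands of the chemokine receptor Cxcr3, were both lower. Cxcl9 had 6.44, 8.33 and 8.73 FPKM in Normal and 0.213, 0 and 0.173 in Tumor. It was nearly absent from the tumors and listed at 0 in Tumor replicate 2, so the fitted log2 fold change of -6.07 (SE 0.76, limma adjusted p = 0.000476) depends on the pseudocount. Cxcl9 passed the filter on low values only through the normal samples. Cxcl10 had 1.18, 2.50 and 2.85 FPKM in Normal and 0.159, 0.290 and 1.03 in Tumor. Each tumor was below each normal sample (log2 fold change -2.36, SE 0.68, limma adjusted p = 0.0190). Of the 16 called members, 10 kept their call in all 14 alternative settings, and Irf9, Trim25, Ifit2, Parp14, Dtx3l and Cxcl10 lost it in at least 1. Without Tumor replicate 1, 17 members were higher, among them Usp18, Ifit1, Oas2, Oasl1, Oasl2, Rsad2, Bst2, Cmpk2 and Xaf1, which were not called with it, and 27.7% of all genes were higher in that fit. The lower members numbered 4 without Normal replicate 2 or 3 and 5 without Normal replicate 1, where 27.5%, 26.6% and 28.3% of all genes were lower.

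Genes of the pathway around the members were compared in the same way. All 21 interferon genes with a row, from Ifna1 to Ifnb1, Ifnl2 and Ifng, stayed below 1 FPKM in every sample of all groups and were not tested. Of 28 other pathway genes that are not members, 6 were higher and 15 lower in Tumor, beside 28.8% and 31.7% of all genes. The receptor subunits Ifngr1 (log2 fold change -1.40), Il10rb (-0.70) and Ifnar1 (-0.64) were lower and Ifnlr1 (1.76) higher (limma adjusted p = 0.000147, 0.00395, 0.0061 and 0.000436), while Ifnar2 (-0.44) and Ifngr2 (-0.23) did not pass. The kinases Jak1 and Jak2 fell by 1.20 and 0.88 on the log2 scale. Of the inhibitors, Socs1 and the phosphatase Ptpn6 fell by 2.40 and 1.68, and the phosphatase Ptpn2 rose by 0.91. Of the genes that induce interferon, the largest called changes were in Tlr9, Irf8 and Irf5, which fell by 4.24, 3.28 and 2.32 and are expressed mainly by leukocytes. Of these 13 inducers 7 were lower in all, and 4 were higher, namely Tlr3, Myd88, Ticam1 and Irf3, which were named after their values were seen.

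The tumors differed from each other over most of the set. The range of the 3 tumors, highest minus lowest in log2(FPKM + 0.03125), had a median of 1.78 over the 36 members, against 0.53 over all genes tested. It exceeded 1 for 30 members (83.3%), against 20.4% of genes. In Normal the medians were 0.42 for members and 0.35 for all genes, and the range exceeded 1 for 4 members. Tumor replicate 3 was the highest tumor for 33 of 36 members, against 25.0% of genes, and Tumor replicate 1 the lowest for 28, against 29.8%. FPKM in Tumor replicate 3 was a median of 3.39 times that in Tumor replicate 1 over 37 members, from 0.812 times for Cxcl9 to 26.1 times for Rsad2, and over 2 times for 29. Set against normal tissue, Tumor replicate 3 was above all normal samples for 27 members, below them for 9 and within their range for 0, where 41.9% of all genes were above and 44.7% below. Tumor replicate 1 was above for 10, below for 19 and within for 7, against 44.2% and 44.0% of all genes above and below. Pan-leukocyte markers summed to 65.3 FPKM in Tumor replicate 1, 36.2 in replicate 2 and 39.9 in replicate 3. Cd52 and Coro1a made up most of these sums. Ptprc was lowest in Tumor replicate 1, with 1.35, 1.68 and 1.49 FPKM in replicates 1 to 3. Adipocyte markers summed to 1312, 84.7 and 93.2 FPKM in the same order, and epithelial markers to 3244, 2225 and 2482. The part of these markers in the spread was not tested.

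**Figure D3:**
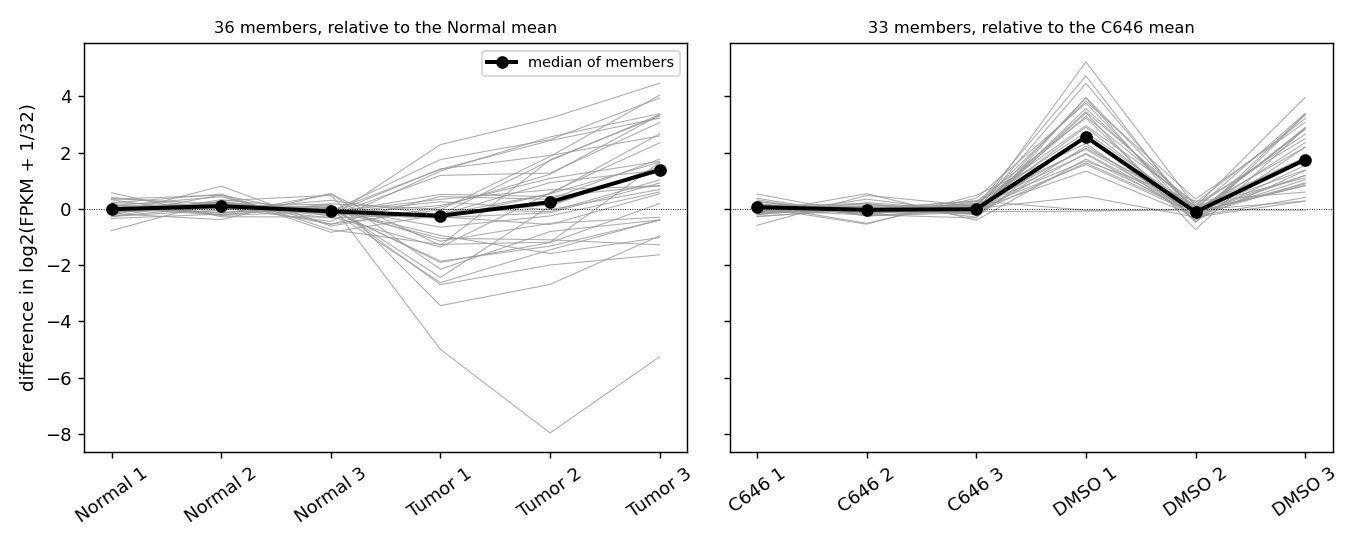
Difference of log2(FPKM + 0.03125) from the mean of the reference group, for 36 members in Normal and Tumor samples (left, relative to Normal) and 33 members in C646 and DMSO samples (right, relative to C646). Each grey line is 1 member and the black line is the median. Most lines are high together in Tumor replicate 3 and in DMSO replicates 1 and 3, and DMSO replicate 2 lies with the C646 samples.

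The C646 group was compared with the DMSO group, which asks whether the p300 inhibitor altered the tumors. No member passed the test: by limma, 0 of 33 were higher and 0 lower, as were 0% and 0% of all 12083 genes tested. At an unadjusted p under 0.05, 0 members were higher and 12 lower, against 169 and 215 of all genes. The log2 fold change of C646 minus DMSO was below 0 for 32 of 33 members, all but Irf1, with a median of -1.31 against -0.01 over all genes. All C646 samples were below all DMSO samples for 4 members, Ifih1, Ddx58, Oasl1 and Mx2, and above them for 0, while the shares of all genes were 4.52% and 4.04%. These 4 were named after their values were seen.

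In single samples the DMSO group was not uniform. Irf7 had 296, 30.2 and 153 FPKM in DMSO and 32.5, 23.0 and 26.5 in C646. The sensor Zbp1 had 70.4, 14.3 and 50.4 FPKM in DMSO and 16.3, 15.9 and 12.9 in C646. Usp18 had 74.3, 2.08 and 31.0 FPKM in DMSO and 1.90, 2.22 and 1.79 in C646. In all 3 genes DMSO replicates 1 and 3 were high and DMSO replicate 2 lay inside the range of the C646 tumors. Usp18 had the largest log2 fold change of the members, -3.09, with a 95% interval from -5.89 to -0.28 (limma adjusted p = 0.99). Oas2 had 70.7, 2.099 and 27.7 FPKM in DMSO and 1.76, 3.71 and 2.84 in C646. Mx2 had 20.2, 1.78 and 11.9 FPKM in DMSO and 1.20, 1.497 and 1.496 in C646. Only for Mx2 of these did DMSO replicate 2 stay above all C646 tumors, by a small margin. Parp14 had 17.3, 3.75 and 8.54 FPKM in DMSO and 4.07, 4.46 and 4.93 in C646. Gbp3 had 48.6, 3.74 and 23.6 FPKM in DMSO and 5.004, 4.42 and 6.12 in C646. For both, DMSO replicate 2 was below every C646 tumor. The log2 fold changes of these genes were -2.03 for Irf7, -1.30 for Zbp1, -2.59 for Oas2, -2.42 for Mx2, -0.87 for Parp14 and -1.66 for Gbp3, each with a limma adjusted p of 0.99.

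DMSO replicates 1 and 3 were each above all C646 tumors for 31 of 33 members, against 34.4% of genes in either case, and Irf1 and Samhd1 were the exceptions. DMSO replicate 2 was above all C646 tumors for 4 members, below for 10 and within their range for 19, where 23.7% of all genes were above and 20.5% below. The range within the DMSO group had a median of 2.74 on the log2 scale over members, against 0.53 over all genes, and exceeded 1 for 30 of 33 members (90.9%), against 21.5% of genes. Within the C646 group the medians were 0.34 and 0.33. FPKM in DMSO replicate 1 was a median of 6.75 times that in DMSO replicate 2 over 36 members, from 0.967 times for Irf1 to 67.4 times for Oas3, and that of DMSO replicate 3 a median of 4.13 times. Without DMSO replicate 2, 8 members were lower in C646 by limma (Isg15, Usp18, Oas1a, Oasl1, Mx2, Rsad2, Bst2 and Xaf1), of 11 genes called in all, and 0 were called when any other sample was left out. That replicate carries the same label as the other DMSO tumors, and its values are given as measured.

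**Figure D4:**
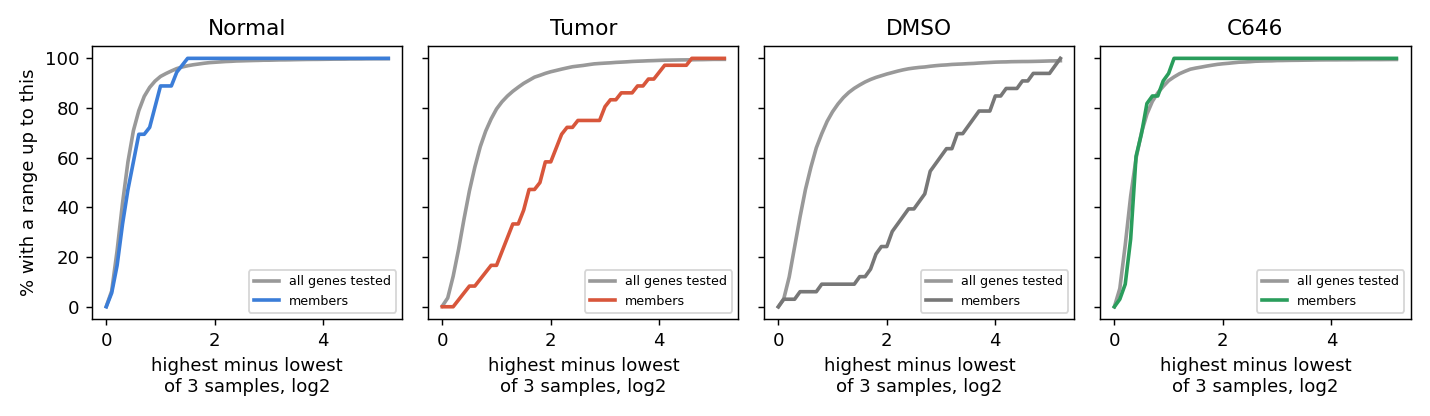
Cumulative share of genes (vertical, %) by the range of their 3 samples in log2(FPKM + 0.03125) (horizontal), for members (coloured) and all genes tested (grey) in each group. In Normal and C646 the median range of members is 0.42 and 0.34, against 0.35 and 0.33 for all genes, and in Tumor and DMSO the members lie far to the right, with medians of 1.78 and 2.74.

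The 2 members that did not follow DMSO replicates 1 and 3 were also lower in Tumor than in Normal. Irf1 had 29.6, 30.6 and 30.2 FPKM in DMSO and 34.6, 30.2 and 29.2 in C646. Its log2 fold change was 0.05, with a 95% interval from -0.22 to 0.33. Samhd1 had 33.1, 33.3 and 41.5 FPKM in DMSO and 28.3, 33.9 and 41.8 in C646. Its log2 fold change was -0.06, with a 95% interval from -0.49 to 0.36. Neither gene set DMSO replicate 2 apart from the other DMSO tumors. The chemokines were too low to be tested: Cxcl9 stayed under 0.4 FPKM in all injected tumors, and Cxcl10 had 2.04, 0.189 and 1.56 FPKM in DMSO and 0, 0.167 and 0 in C646. The rows that join members with a neighbour had the pattern of the others. Ifit3 with Ifit3b had 93.2, 2.16 and 20.1 FPKM in DMSO and 3.30, 2.25 and 2.14 in C646, Irf9 with Rnf31 had 80.5, 35.2 and 57.6 against 33.4, 30.0 and 39.9, and Igtp with Irgm2 had 68.1, 7.99 and 34.5 against 13.6, 8.77 and 10.3.

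**Figure D5:**
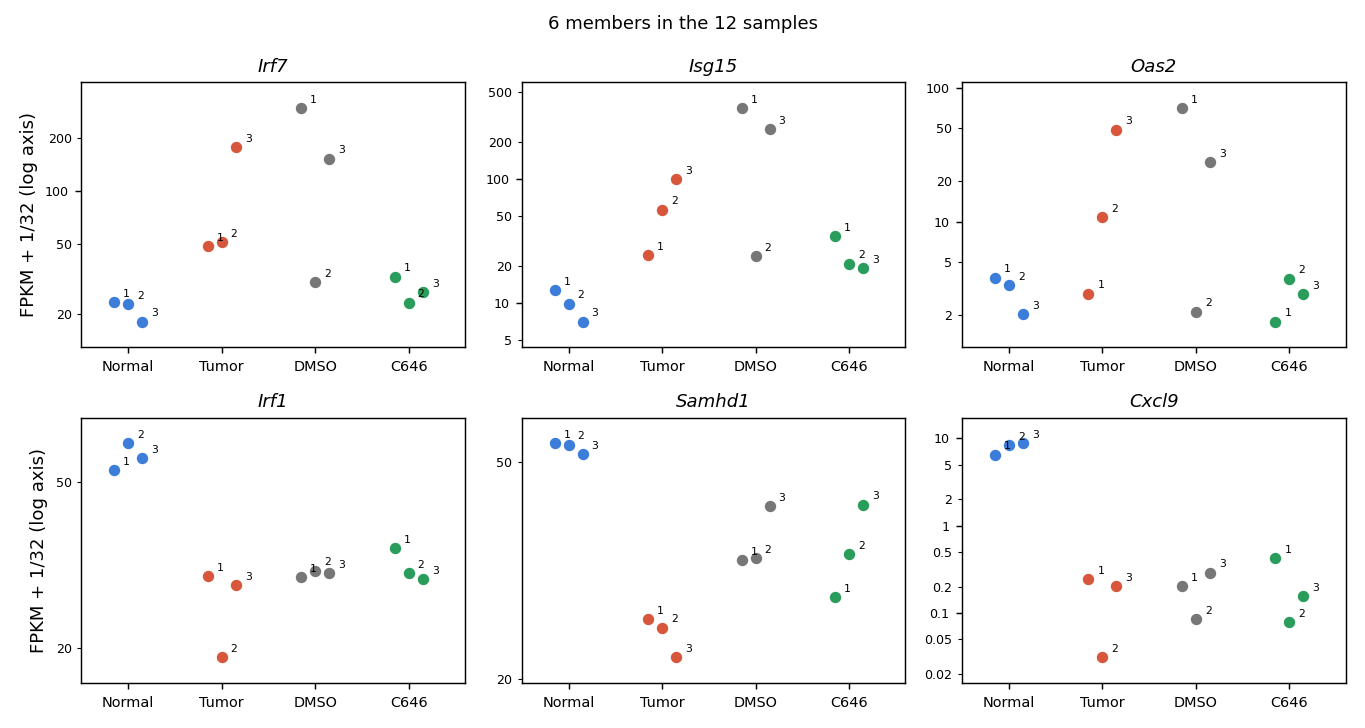
FPKM + 0.03125 (log axis) of 6 members in the 12 samples, with replicate numbers beside the points; the 6 were picked after their values were seen. Irf7, Isg15 and Oas2 have their 3 highest values in DMSO replicates 1 and 3 and Tumor replicate 3, while Irf1, Samhd1 and Cxcl9 are highest in Normal.

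The other pathway genes and the cell markers were set beside this pattern. None of 26 pathway genes tested passed by limma between C646 and DMSO, with 2 higher and 1 lower at an unadjusted p under 0.05. The receptor subunits had mean levels in DMSO and C646 of 11.3 and 10.8 FPKM for Ifnar1, 50.8 and 47.4 for Ifnar2, 30.4 and 35.1 for Ifngr1, 31.5 and 29.7 for Ifngr2, 7.32 and 9.43 for Ifnlr1 and 23.2 and 25.0 for Il10rb. Pan-leukocyte markers summed to 27.7, 36.8 and 37.7 FPKM in DMSO replicates 1 to 3 and to 31.0, 36.4 and 45.0 in C646, so DMSO replicate 1, highest for 30 of 33 members, was the lowest of the 6 tumors for these markers. T and NK cell markers went another way, with 2.93, 1.03 and 0.966 FPKM in DMSO and 2.56, 2.13 and 2.88 in C646. Their sum was thus highest in DMSO replicate 1, by a small margin and at low levels. Only 1 of the 6 genes, Nkg7, reached 1 FPKM in an injected tumor, with 1.59 in DMSO replicate 1. Macrophage and monocyte markers summed to 55.5, 59.5 and 45.8 FPKM in DMSO and 44.7, 52.9 and 73.5 in C646. B cell markers summed to under 0.9 FPKM in each, and plasmacytoid dendritic cell markers to between 0.033 and 5.77, with 0.119 in DMSO replicate 1. Of these, Cox6a2 had 5.77 FPKM in DMSO replicate 3, 5.51 in C646 replicate 1 and 4.76 in C646 replicate 3. It was listed at 0 in the other injected tumors. Epithelial markers summed to between 2475 and 2865 FPKM in DMSO and between 2202 and 2744 in C646. Adipocyte markers summed to 9.95, 43.4 and 47.2 FPKM in DMSO and 58.7, 264 and 302 in C646. The 3 myoepithelial markers summed to 251 in DMSO replicate 3 and 19.3 to 54.2 in the other 5. Krt5 made up 229 of the 251, beside 21.8 for Acta2 and 0.184 for Myh11. The part of these markers in the result was not tested.

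The spread was also set against the promoter sequences. Among members with the ISRE core in the promoter, FPKM in DMSO replicate 1 was a median of 9.60 times that in DMSO replicate 2 (14 members with values), and among members with a promoter without it a median of 5.19 times (12 members). For Tumor replicate 3 over Tumor replicate 1 the medians were 3.82 times (14 members) and 3.04 times (13 members). These are descriptions without a test. In Tumor against Normal, 2 of 13 tested members with the core were higher and 2 lower, against 4 and 5 of 13 without it, where the shares of all genes were 28.8% and 31.7%.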

How the data were processed

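Poly-A RNA of 12 samples in 4 groups of 3 was sequenced from a kit without strand information. Per the labels' processing notes and the methods, the authors used cutadapt for trimming and TopHat2 2.1.1 for mapping (mm10), and deposited FPKM per gene from Cufflinks 2.2.1. The gene annotation is not given in the sources used here. FPKM is scaled by gene length and library size, and mapped read numbers are not in the values, so the depth behind a value is unknown.

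Here, rows of a repeated name were summed, rows that join a member with another gene were kept apart, and limma 3.58.1 (R 4.3.3) was run on log2(FPKM + 0.03125), with a trend in the variance, over genes that reached 1 FPKM in 3 or more of 6 samples. P-values were adjusted by Benjamini-Hochberg over all genes tested, at 0.05. A fold change on this scale understates that of low genes. Motifs and promoters came from RefSeq, positions from GENCODE. Members and lists were chosen with earlier results of these data known. Values in every sample are given for up to 3 members of each role that passed, by size of change, or for the largest change of a role where none passed, and the rest as counts and ranges. Alternatives were the pseudocount, the filter, scaling, repeated rows, a replicate block and leaving out each sample. One pathway gene is not reported here.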

Additional observations from a re-analysis of the deposited data

How the results depend on the processing

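The difference in score, Tumor minus Normal, turned to -0.065 with the median over members in place of the mean, and ran from -0.24 to 0.69 when 1 sample was left out, while that of C646 minus DMSO ran from -2.34 to -0.92. Leaving out 1 sample moved the members higher in Tumor between 6 and 17, those lower in Tumor between 4 and 11, and those lower in C646 between 0 and 8. Quantile normalization, which moved the median log2 fold change of all genes from -0.02 to 0.10 and the calls over all genes from 3758 higher and 4128 lower to 4260 and 3715, gave 11 members higher and 5 lower in Tumor. Members that had not been called changed sign. With quantile normalization Tumor minus Normal became 0.042 for Stat2, 0.042 for Ddx58, 0.19 for Ifit3 and 0.31 for Mx1, and C646 minus DMSO became 0.005 for Samhd1. With a pseudocount of 1 Tumor minus Normal became 0.038 for Mx1. Leaving out 1 sample moved it between -0.417 and 0.132 for Stat2, -0.057 and 0.507 for Ifih1, -0.450 and 0.174 for Ddx58, -0.018 and 0.765 for Dhx58, -0.393 and 1.46 for Usp18, -1.22 and 0.234 for Ifit3, -1.17 and 0.802 for Mx1, and -0.226 and 0.390 for Irgm1. It moved C646 minus DMSO between -0.208 and 0.074 for Samhd1 and between -0.02 and 0.103 for Irf1. The cause was not tested. The row-joining alternative was chosen after seeing the data. With the replicate number as a replicate block, 8 members were higher and 8 lower in Tumor, beside 26.4% and 29.4% of all genes. In C646 0 were higher and 0 lower, as were 0% and 0% of all genes. Dtx3l lost its call in Tumor and Iigp1 gained one. Same-numbered samples deviated together with r = -0.04, -0.10 and 0.01 in Normal and Tumor and 0.18, 0.07 and 0.11 in the injected tumors. For samples with different numbers r ran from -0.06 to 0.09 and from -0.23 to 0.14. With 3 samples per group these values cannot decide whether the numbers pair the samples. Depth is unknown, which limits statements on members near 1 FPKM.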
